A study of Mus musculus with 20 samples.

Results

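The step from embryonic day 16 (E16) to the day of birth (P0) was compared between 2 auditory organs of the mouse, the cochlea and the superior olivary complex (SOC). The cochlea is the hearing organ of the inner ear, and the SOC is made up of nuclei in the brainstem that serve hearing. Members were all genes of the deposited table with counts in both organs, 16394 of 22734. They were tested for an organ difference, which is the log2 fold change P0 over E16 in the cochlea minus the same log2 fold change in the SOC. A positive organ difference means that a gene rose more or fell less in the cochlea. All 14 libraries of the 4 groups were used, of 20 in the series. These were 3 cochlea libraries at E16, 3 cochlea libraries at P0, 4 SOC libraries at E16 and 4 SOC libraries at P0. A further 5416 genes had counts in the cochlea alone, 858 in the SOC alone and 66 in neither in these libraries, and they were not tested.

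All animals were wild type and untreated, and of both sexes. The cochlear material was the dissected sensory epithelium of C57BL/6JOlaHsd mice, and the SOC material was cut out of frozen tissue of C57Bl6/J mice on a cryostat. Each library was made from RNA of several pooled animals. The SOC at E16 came from whole frozen heads, whereas at P0 the skull had been removed before freezing. The organs were also handled in different laboratories with different library kits and sequencers. Levels of one organ against the other cannot be separated from this handling, whereas the organ difference compares each organ's own change over the step.

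As background, the sensory epithelium of the cochlea holds hair cells, which turn sound into electrical signals through a bundle of actin-filled stereocilia, and supporting cells around them. Spiral ganglion neurons carry these signals to the brainstem. The neurons of the SOC are the first to compare input from both ears, and fast excitatory and glycinergic inhibitory synapses serve this task. Around birth hair cells build their bundles and first synapses, and SOC neurons build their circuits. In both organs the cells that remain in the cell cycle become fewer.

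Several properties of the libraries bear on the results. Library totals were 20843679 to 31181323 counts, and levels are given as CPM, counts scaled to an equal library total. Markers of the labelled tissues were present. The hair cell genes Myo7a and Pou4f3 were at 49.6 to 108 and 16.1 to 22.5 CPM in the cochlea at both ages. In the SOC Pou4f3 was at most 4.47 CPM, whereas Myo7a was at 24.4 to 55.7 CPM, which overlaps the cochlea at E16. In the SOC Slc6a5, the glycine transporter of glycinergic neurons, was at 7.08 to 23.5 CPM at E16 and 51.9 to 115 CPM at P0. It had 0 counts in every cochlea library, which kept it out of the test. Replicate 4 of both SOC groups was deposited in another joined table than replicates 1 to 3 and stood apart from them. Chi-square divided by its degrees of freedom was 68 to 109 for pairs of libraries with replicate 4. SOC P0 replicate 4 also held genes of the forebrain cortex. The summed level of 8 such genes, chosen after values were seen, was 436 CPM there against 117 to 144 CPM in the other SOC P0 libraries, and Neurod6 reached 155 CPM. Actc1, Gfap, Gpr17, Nefl, Omg and Tk1 are overlapped along their whole length by a gene on the other strand, and Xirp2 and Neurod1 along 74.4% and 46.4%. Whether strand was used in counting is not given in the sources used here, so reads of such pairs cannot be told apart.

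Markers of several other head tissues were high in the SOC at E16 and low at P0. The summed level of 42 skeletal muscle genes was 1484 to 2996 CPM in the SOC at E16 and 64.1 to 90.3 CPM at P0. Myog, a transcription factor of forming muscle, was at 14.5 to 37.9 CPM at E16 and at most 0.324 CPM at P0. For 22 cartilage genes the sum was 8069 to 15245 CPM at E16 and 231 to 383 CPM at P0. Bone genes (2850.0 to 3878 against 246 to 417 CPM), erythroid genes (1582 to 3079 against 159.8 to 329.8 CPM), genes of meninges and fibroblasts (6674 to 8895 against 945 to 1403 CPM) and 25 genes of the inner ear itself (899 to 969 against 123 to 144 CPM) did the same. None of these SOC ranges overlapped. The sums for teeth, salivary or nasal epithelium (9.97 to 29.9 against 11.5 to 16.2 CPM) did overlap. So did those for the pituitary (1.68 to 6.28 against 1.55 to 4.27 CPM). In the cochlea the cartilage sum was 8203 to 9477 CPM at E16 and 17065 to 18672 CPM at P0. Bone genes were at 1684 to 2159 and 2514 to 3293 CPM there. Genes of meninges and fibroblasts were at 4908 to 5529 and 5466 to 6514 CPM. Erythroid genes were at 444 to 662 and 290.2 to 534 CPM. Over the same step the summed level of 18 neuron genes went from 6185 to 7257 CPM to 9684 to 11141 CPM in the SOC, and from 1168 to 1359.5 CPM to 761 to 938 CPM in the cochlea. In such bulk samples fewer cells of a type and less RNA per cell cannot be told apart, and the part of this tissue in the organ differences below was not tested beyond the values given.

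**Figure D1:**
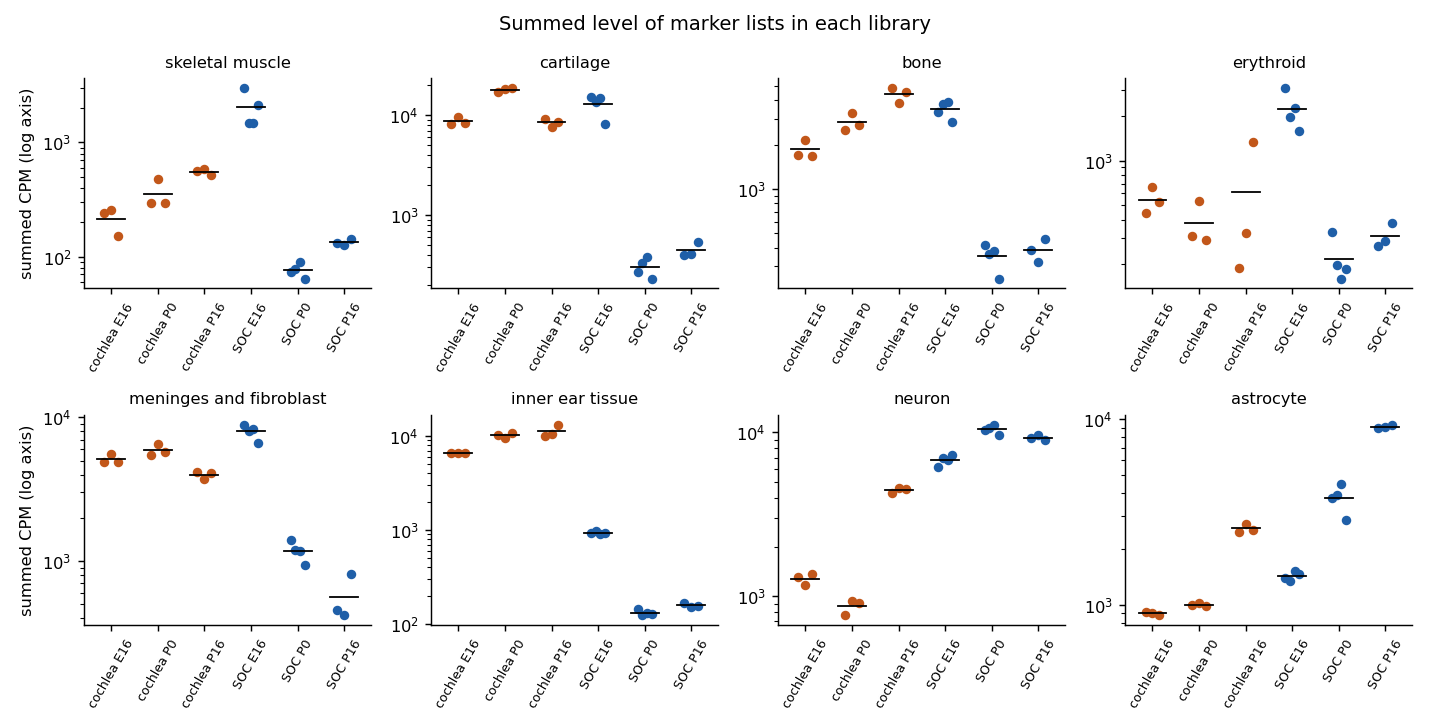
Summed CPM (log axis) of 8 lists of marker genes in each library, cochlea in orange and SOC in blue, at E16, P0 and P16. Points are libraries and bars are group means. Muscle, cartilage, bone, erythroid, meninges and inner ear markers were high in the SOC at E16 and low at P0, and the neuron sum was higher at P0 than at E16 in the SOC and lower in the cochlea.

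The organs differed in their prenatal step at 2070 genes. A gene was called when its adjusted p was under 0.01 (edgeR quasi-likelihood F test, Benjamini-Hochberg over all members) and the organ difference was over 2.5-fold. The change was higher in the cochlea at 1300 genes, which is 7.93% of those tested, and higher in the SOC at 770 genes, or 4.70%. Within each organ, a step was called at the same limits where in addition the libraries of the 2 ages did not overlap. In the cochlea 435 genes (2.65%) rose and 474 (2.89%) fell, and in the SOC 596 (3.64%) rose and 1163 (7.09%) fell. The largest class of organ differences came from the fall in the SOC. Of the 1300 genes with the higher change in the cochlea, 748 had a called fall in the SOC with no called cochlea change. At least 1 CPM on average in the SOC at P16, in libraries outside the fit, was reached by 464 of these 748 (62.0%). Over all genes tested it was reached by 13991 of 16394. Only the cochlea step was called at 142 of the 1300, both steps in opposite directions at 57 and in the same direction at 9, and neither step at 344. Of the 770 genes with the higher change in the SOC, 198 had a called rise in the SOC alone, 186 a called fall in the cochlea alone, 9 opposite steps, 3 steps in the same direction and 374 neither.

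**Figure D2:**
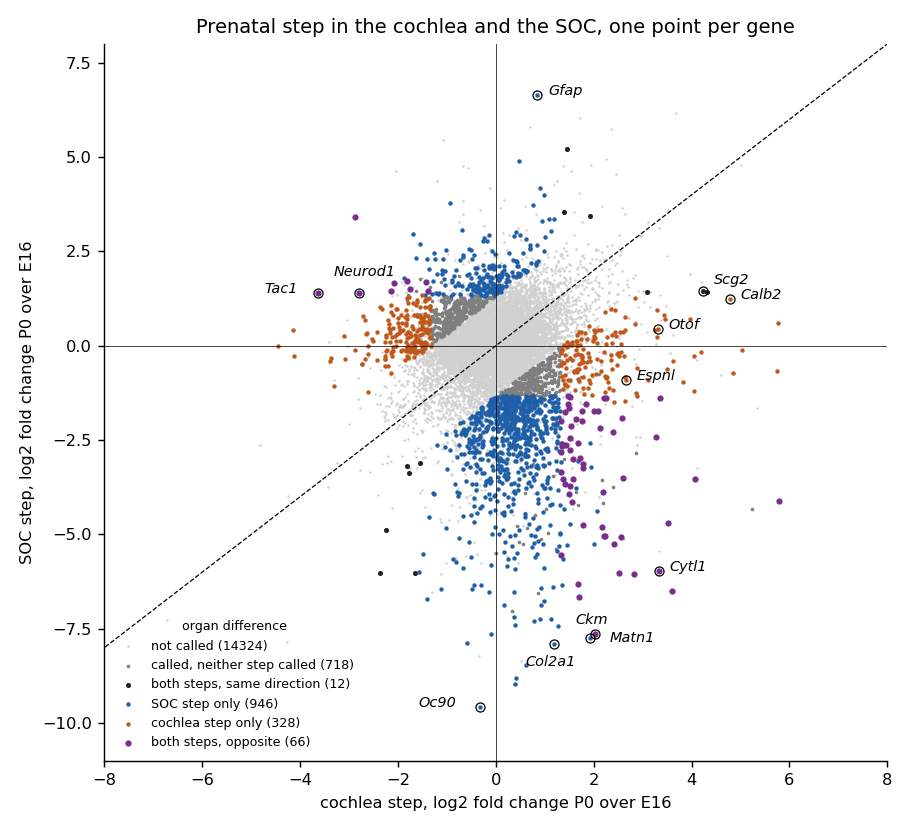
Log2 fold change P0 over E16 in the cochlea (horizontal) and in the SOC (vertical), one point per gene tested. The dashed line marks equal steps, colours give the steps called among genes with an organ difference, and labelled genes are described in the text. The blue points below the line, with a fall in the SOC alone, outnumber the other classes in which a step was called.

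Genes of cell division did not separate the organs. Of 52 mitosis genes, 35 fell in the cochlea and 43 fell in the SOC, and 51 of 52 had a log2 step below 0 in both. Median log2 steps were -1.45 (cochlea) and -1.66 (SOC), beside -0.01 and 0.03 over all genes tested. The median organ difference was 0.02, beside -0.07 over all genes tested. None passed the limits for an organ difference, whose values ran from -0.82 (Nuf2) to 1.22 (Kif20a). In this fit 3 of the 52 had an adjusted p under 0.01 at a smaller fold, and 13 an unadjusted p under 0.05 (edgeR). Some alternatives held calls, 1 gene without SOC P0 replicate 4 and 1 with upper-quartile factors. Among genes with at least 1 CPM in the SOC at P16, 2 of 38 were called. DESeq2 called none of the 52. Top2a (chr11:98992943-99024189, mm10, exons on the minus strand), the topoisomerase that untangles chromosomes before they part, was at 365, 295 and 405 CPM in the cochlea at E16 and 97.8, 70.6 and 79.1 CPM at P0. In the SOC it was at 308, 272, 279 and 349 CPM at E16 and 65.3, 74.3, 44.7 and 110.1 CPM at P0. Neither organ's ages overlapped, and the log2 steps were -2.05 ± 0.267 (SE) and -1.91 ± 0.23. Of 39 DNA replication genes, 11 fell in the cochlea, 13 fell in the SOC and 38 had a step below 0 in both. The organ difference was called at 2 of the 39, both with the higher change in the cochlea, near the 7.93% over all genes tested. Tk1, the thymidine kinase that salvages a building block of DNA, had a log2 step of -0.16 in the cochlea (41.4, 46.7 and 38.5 against 35.1, 37.9 and 36.2 CPM) and fell by 2.12 in the SOC, and Orc1, a subunit of the origin recognition complex, was the other.

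Since the mitosis genes moved together in both organs, the bases before their start sites were searched for CCAAT and TTTGAA, on both strands, in the 250 bases before the start (RefSeq, GRCm38.p6). CCAAT is bound by the factor NF-Y, and TTTGAA is the cell cycle homology element found before many genes of mitosis. CCAAT or its complement lay in 71.1% of the 45 windows of 43 mitosis genes that could be matched, against 34.7% of the windows of all genes tested. TTTGAA or its complement lay in 37.8% against 10.6%, and both in 33.3% against 3.89%. In the windows of presynaptic genes the shares were 28.6%, 11.9% and 4.76%. A match is a run of letters and not a measured site. Shown here are the 150 bases before the start of the 3 mitosis genes with the largest fall in both organs among those with a single start in the table, outside the GENCODE gene, and both motifs in this stretch, with the motifs in capitals.
Top2a (chr11:99024190-99024339, minus strand): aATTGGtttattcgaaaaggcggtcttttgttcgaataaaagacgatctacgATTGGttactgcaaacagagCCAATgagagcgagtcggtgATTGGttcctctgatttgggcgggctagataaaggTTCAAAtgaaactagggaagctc
Kif11 (chr19:37376232-37376381, plus strand): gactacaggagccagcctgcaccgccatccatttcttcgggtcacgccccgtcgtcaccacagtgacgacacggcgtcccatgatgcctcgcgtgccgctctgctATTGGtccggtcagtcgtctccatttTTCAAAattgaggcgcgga
Ckap2l (chr2:129297213-129297362, minus strand): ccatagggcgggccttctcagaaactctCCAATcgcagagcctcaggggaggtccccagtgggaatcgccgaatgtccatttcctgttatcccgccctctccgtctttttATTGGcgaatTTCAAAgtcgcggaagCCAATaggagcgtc
The organ difference was -0.14 for Top2a, -0.32 for Kif11, a motor of the mitotic spindle, and 0.05 for Ckap2l, a spindle protein.

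Several other functions leaned to one organ. The higher change lay in the cochlea at 19 of 19 genes of the tectorial membrane and otoliths, 11 of 30 of the hair bundle, 23 of 54 of Wnt signalling and 15 of 31 of the endolymph and lateral wall. It lay in the SOC at 14 of 40 presynaptic genes, 7 of 32 glutamate receptor genes and 13 of 51 potassium channel genes. Except for the tectorial membrane list, most genes of these lists were thus not called. Over all genes tested the shares were 7.93% higher in the cochlea and 4.70% higher in the SOC. For called steps they were 2.65% rises and 2.89% falls in the cochlea, and 3.64% and 7.09% in the SOC. These shares are the comparison for the list counts below. The medians of the lists are plotted in the comparison of list steps.

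**Figure D3:**
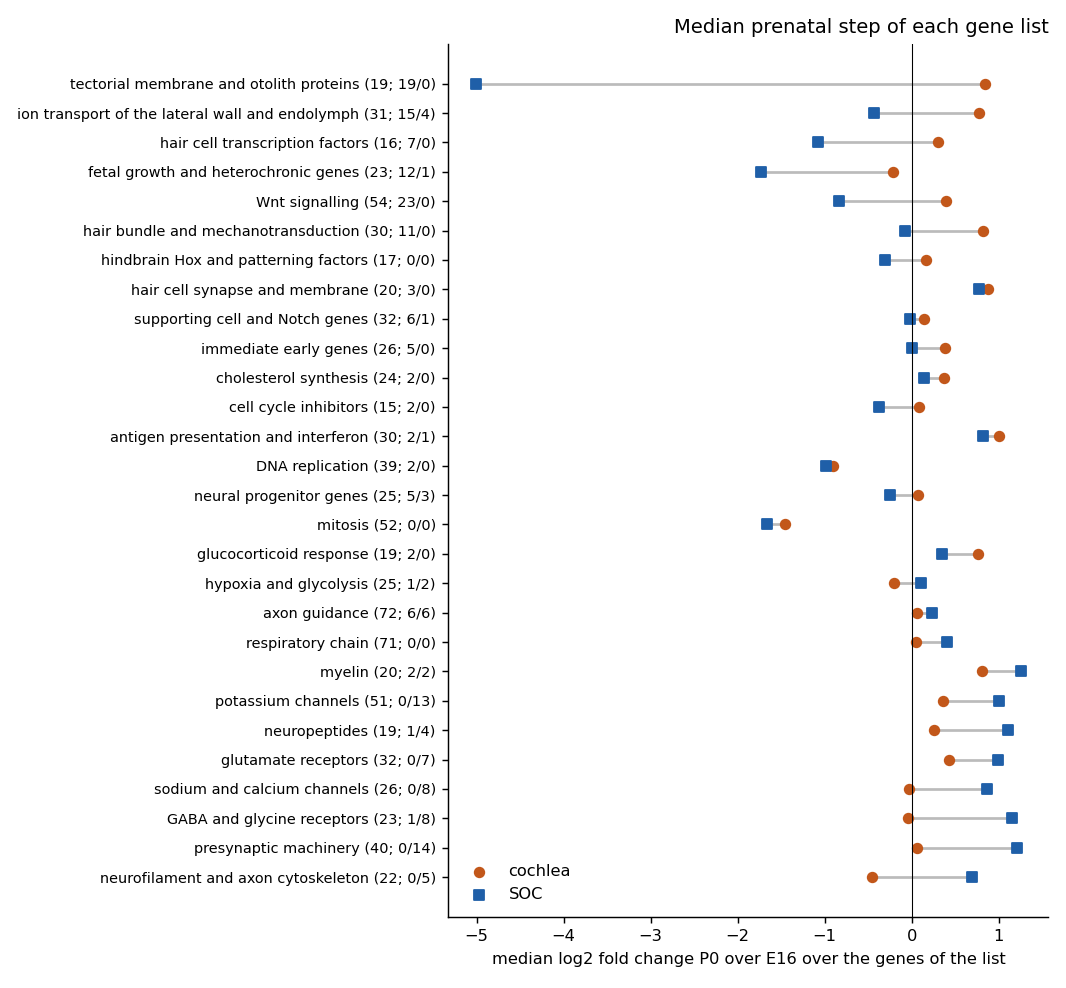
Median log2 fold change P0 over E16 of each list of functional genes in the cochlea (orange circles) and the SOC (blue squares), sorted by the median organ difference. Numbers in brackets are the genes tested and, after the semicolon, those called as higher in the cochlea and as higher in the SOC, for example 40 presynaptic genes with 0 and 14.

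Genes of the mechanosensory hair bundle rose before birth in the cochlea. Of 30 genes tested 10 rose in the cochlea and none fell, whereas in the SOC 2 rose and 4 fell. Median log2 steps were 0.82 (cochlea) and -0.07 (SOC). Of the 30 genes, 11 had the higher change in the cochlea and none in the SOC, beside 7.93% and 4.70% over all genes tested. A further 11 of the 41 listed genes were left untested for want of counts in one organ. Espnl (chr1:91322075-91348306, plus strand), a relative of the actin-bundling protein espin, was at 5.48, 7.1 and 5.07 CPM in the cochlea at E16 and 32.6, 34.2 and 40.5 CPM at P0. In the SOC it was at 1.38 to 1.83 CPM at E16 and 0.529 to 1.25 CPM at P0. The rise was thus seen in every cochlea library, at a log2 step of 2.66 ± 0.216, and the organ difference was 3.58 ± 0.321 (adjusted p = 1.69e-06, edgeR). Pkhd1l1, a protein of the stereocilia coat, went from 0.513 to 0.782 CPM to 15.1 to 22.7 CPM in the cochlea and stayed between 0.462 and 1.23 CPM in all SOC libraries (organ difference 5.57 ± 0.327, adjusted p = 4.88e-08). Ptprq, a phosphatase of the links between stereocilia, rose from 12.1 to 14.6 to 44.9 to 57.5 CPM in the cochlea and fell from 6.18 to 11 to 1.73 to 2.65 CPM in the SOC (organ difference 3.83 ± 0.297). For Eps8l2, an actin regulator at the tips of stereocilia, the cochlea libraries went from 7.71 to 10.1 to 17.6 to 22.6 CPM without passing the fold limit, and the SOC fell from 2.49 to 5.32 to 0.34 to 0.842 CPM. Xirp2, an actin-binding protein of stereocilia and muscle, was at 0.573 to 0.983 CPM in the cochlea at E16 and 6.85 to 10.4 CPM at P0. It was at 1.76 to 3.65 CPM in the SOC at E16 and between 0 and 0.185 CPM at P0, near the 0.113 to 0.144 CPM that 3 counts give, so its fold in the SOC is not given. Espn itself was the least certain of the group. It rose from 7 to 10 CPM to 27.6 to 37.7 CPM in the cochlea, but SOC replicate 4 was at 0 through its joined table, and the adjusted p of 0.00959 became 0.0105 to 0.0283 in 12 of the 14 settings that left out 1 library, all but those without SOC E16 replicate 4 or SOC P0 replicate 1. Among genes with at least 1 CPM in the SOC at P16 only 4 of 22 hair bundle genes had the higher change in the cochlea, with 5 rising in the cochlea and a median organ difference of 0.45.

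The synapse and membrane genes of hair cells that could be tested differed less between the organs. Another 8 of the 28 listed genes had no SOC counts in these libraries and were left untested. Of 20 tested, 6 rose in the cochlea, 2 rose in the SOC and 3 had the higher change in the cochlea. The median log2 steps were 0.88 and 0.77. Otof (chr5:30367062-30461932, minus strand), the calcium sensor of transmitter release in hair cells, was at 9.94, 10.5 and 7.08 CPM in the cochlea at E16 and 76.4, 85 and 101 CPM at P0. The SOC libraries were at 6.62 to 12 CPM at E16 and 6.99 to 16.1 CPM at P0 and overlapped. The cochlea step of 3.32 ± 0.292 gave an organ difference of 2.87 ± 0.368 (adjusted p = 4.14e-05, edgeR). Calb2, the calcium buffer calretinin, rose from 0.782 to 1.5 CPM to 28.4 to 31.2 CPM in the cochlea, and in the SOC its libraries went from 30.4 to 34.5 to 55.1 to 81.1 CPM, a log2 step of 1.24 that did not pass the fold limit. It stood at 1189 CPM on average in the cochlea at P16.

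**Figure D4:**
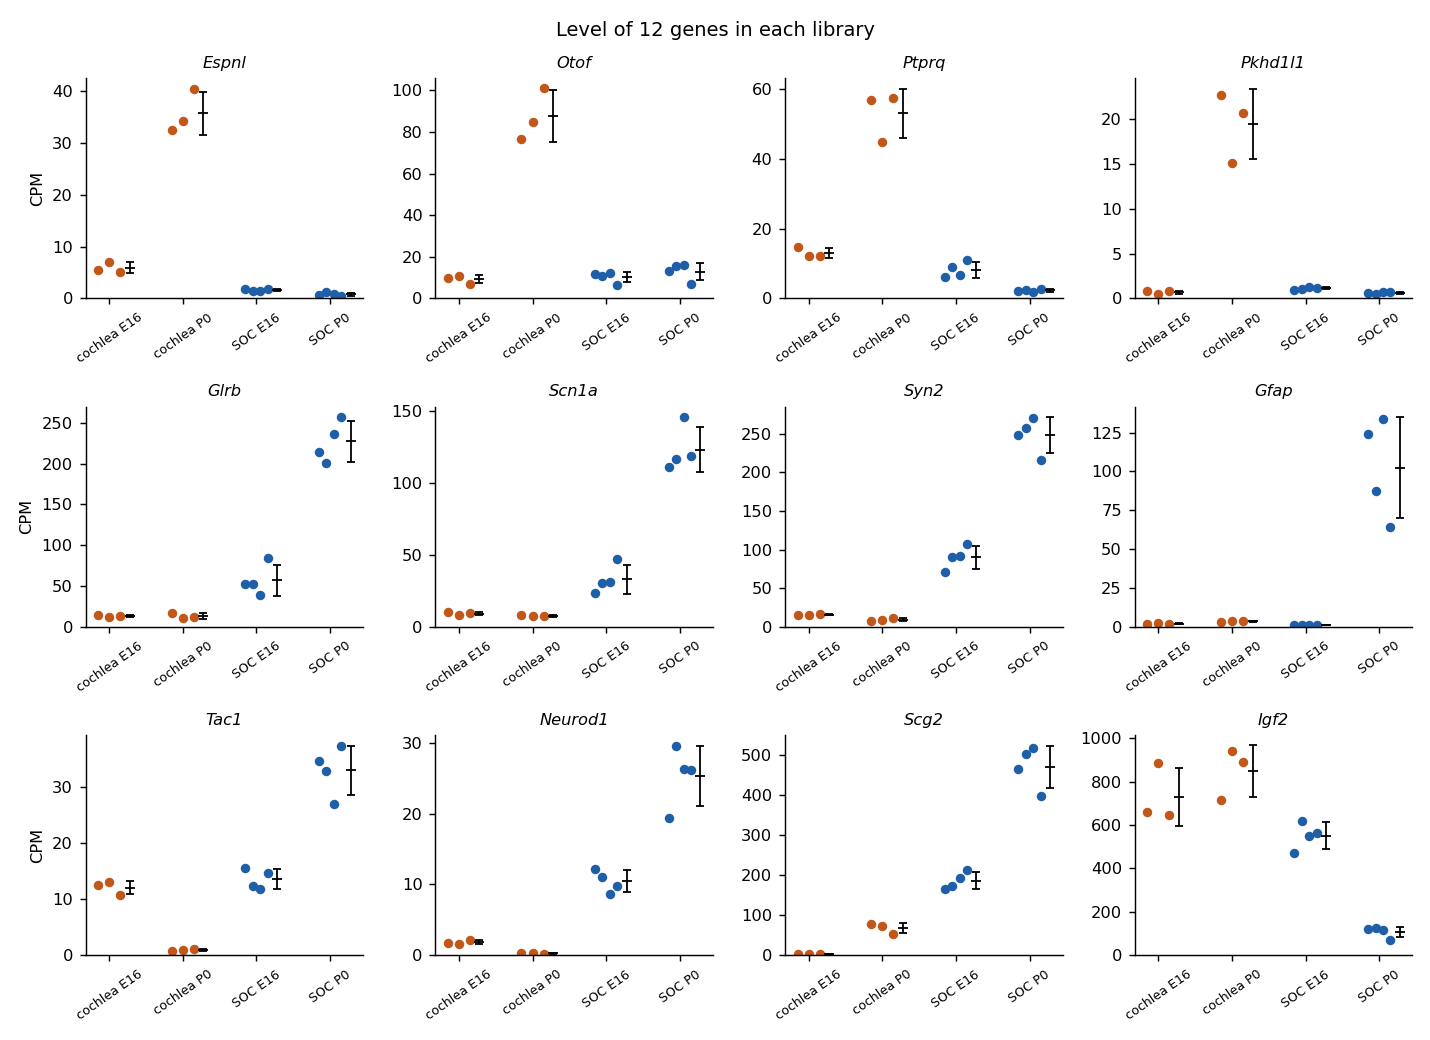
Level in CPM of 12 genes in each library of the 4 groups, cochlea in orange and SOC in blue, with the mean and SD of each group in black. The upper row rose in the cochlea, the middle row rose in the SOC and the lower row holds genes with opposite steps (Tac1, Neurod1), with steps in the same direction (Scg2) and with a fall in the SOC alone (Igf2).

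Other genes with a cochlea step alone and the higher change there, chosen by size, were Ppp1r1b and Slc6a2. Ppp1r1b, a dopamine-regulated inhibitor of protein phosphatase 1, was at 0.335 to 0.47 CPM in the cochlea at E16 and 15.5 to 31.1 CPM at P0, and at 1.24 to 6.96 CPM in all SOC libraries (organ difference 5.16 ± 0.754). A gene on the other strand overlaps 52% of it. Without SOC P0 replicate 4, the highest SOC library, its organ difference was 6.01. For Slc6a2, the noradrenaline transporter, the cochlea went from 0.223 to 0.327 CPM to 1.35, 1.42 and 7.15 CPM, and without P0 replicate 3, the highest of these, the organ difference of 4.03 became 2.73 with adjusted p = 0.000571. Of 24 cholesterol genes 2 had the higher change in the cochlea and none in the SOC, near the share of all genes tested (7.93%). Insig1, a regulator of cholesterol synthesis, rose from 31.9 to 40.1 to 125 to 162 CPM in the cochlea and was at 101 to 138 and 111 to 161 CPM in the SOC (organ difference 1.68 ± 0.235). Of 19 genes of the glucocorticoid response 6 rose in the cochlea, and 4 rose and 1 fell in the SOC. The higher change lay in the cochlea at 2 of the 19, also near that share, and the median organ difference was -0.01. These were Zbtb16 (7.86 to 14.5 against 69.2 to 90.8 CPM in the cochlea) and Per1 (35.3 to 48.5 against 105 to 192 CPM). The call of Per1 was lost without SOC P0 replicate 1, cochlea E16 replicate 1 or 3 or cochlea P0 replicate 2 or 3, with adjusted p of 0.0127 to 0.0196 (edgeR).

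Transcription factors of hair cell fate differed between the organs mainly through the SOC. Of 16 tested 3 rose in the cochlea and 5 fell in the SOC, and 7 had the higher change in the cochlea. Eya1, a phosphatase and coactivator needed for the inner ear, was at 253 to 262 and 317 to 338 CPM in the cochlea and fell from 48.3 to 59.9 to 7.58 to 9.49 CPM in the SOC. Pou4f3, which keeps hair cells alive, likewise fell in the SOC alone, from 3.6 to 4.47 to 0.416 to 0.864 CPM. These falls in the SOC lay beside that of the inner ear markers given above. A rise in the cochlea itself was called for Gfi1, a repressor of neuronal genes in hair cells (1.49 to 3.04 against 7.63 to 11.3 CPM), and for Lhx3 (1.15 to 1.92 against 5.6 to 9.01 CPM). For Lhx3 the SOC libraries were at 4.89 to 7.39 and 1.7 to 4.79 CPM, with a step of -0.61 that did not pass, and the organ difference was 2.99 ± 0.433. Gfi1 in the SOC was at 1.02 to 2.32 CPM at E16 and at 0 to 0.0886 CPM at P0, at or under the level of 3 counts. Atoh1, which starts the hair cell program and also marks rhombic lip neurons, was at 7.71 to 9.4 and 6.11 to 6.96 CPM in the cochlea and fell from 6.58 to 12.7 to 1.85 to 3.84 CPM in the SOC. Its organ difference of 1.42 was lost without SOC P0 replicate 4 (1.27, under the fold limit) and without cochlea E16 replicate 3 or cochlea P0 replicate 2 or 3 (adjusted p 0.0104 to 0.0124, edgeR). With the 8 genes of the list that had at least 1 CPM in the SOC at P16, 2 differed between the organs.

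The proteins of the tectorial membrane and of otoliths showed the widest gap. All 19 tested had the higher change in the cochlea, with 3 rising in the cochlea and 16 falling in the SOC, and the median log2 step was 0.84 in the cochlea and -5.01 in the SOC. Tecta (chr9:42329619-42399929, minus strand), the tectorin alpha that forms the tectorial membrane, rose from 1602, 1557 and 1522 CPM at E16 to 3369, 3596 and 4326 CPM at P0 in the cochlea. In the SOC it was at 24.1, 50.8, 29.5 and 25.4 CPM at E16 and 0.48 to 0.798 CPM at P0. Oc90 (chr15:65876053-65912397, minus strand), the main otoconial protein, was at 1754 to 1913 CPM in the cochlea at E16 and 1355 to 1487 CPM at P0, which did not pass, and fell from 254 to 306 CPM to 0.189 to 0.62 CPM in the SOC. Otor, a secreted protein of the inner ear, was at 672 to 891 and 852 to 1799.7 CPM in the cochlea and fell from 108 to 136 to 0.151 to 0.62 CPM in the SOC, with an organ difference of 9.07 that was 9.69 without SOC P0 replicate 3. Epyc, a small proteoglycan of the cochlear epithelium, and Col9a1, a collagen of cartilage and tectorial membrane, fell in the SOC from 43.8 to 83.1 and from 720.4 to 1217 CPM to 0.139 to 0.842 and 3.44 to 9.7 CPM. In the cochlea Col9a1 had a step of 1.12 and Epyc of 0.78, and neither was called. The SOC levels of these genes fell beside the head tissue markers, but the lists share genes such as Oc90, so this is no separate evidence. Of the genes with at least 1 CPM in the SOC at P16, 9 of 9 had the higher change in the cochlea. That minimum did not remove genes of cartilage, as given below.

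Genes of the endolymph and the lateral wall of the cochlear duct were more mixed. Of 31 tested 7 rose and 1 fell in the cochlea, 3 rose and 8 fell in the SOC, and 15 had the higher change in the cochlea against 4 in the SOC. Atp6v0a4, a subunit of the proton pump, was the clearest case on the cochlea side and rose from 0.112 to 0.695 CPM to 6.77 to 7.56 CPM, while the SOC libraries were at 0.903 to 1.17 and 0.324 to 0.672 CPM (organ difference 5.24 ± 0.567). Aqp1, a water channel, was at 88.6 to 101 and 172 to 216 CPM in the cochlea, a log2 step of 1.07 under the fold limit, and fell from 50.7 to 73.2 to 5.76 to 9.49 CPM in the SOC. Cldn9, a tight junction protein of the organ of Corti, and Dct, a melanin enzyme of the intermediate cells, fell in the SOC from 7.66 to 10.2 and from 6.24 to 8.81 CPM to at most 0.31 and 0.34 CPM. The largest difference in the other direction was that of Aqp4, the water channel of astrocytes and supporting cells, which rose from 24.4 to 47.2 to 498 to 581 CPM in the SOC and was at 0.941 to 2.59 CPM in the cochlea (organ difference -3.28 ± 0.379).

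Genes of transmitter release rose before birth in the SOC. Of 40 presynaptic genes tested 15 rose in the SOC and none fell, while in the cochlea 4 rose and 1 fell. The median log2 step was 1.21 in the SOC and 0.06 in the cochlea. The higher change lay in the SOC at 14 of the 40, beside 4.70% over all genes tested, and in the cochlea at none. Syn2 (chr6:115134902-115282006, plus strand), the vesicle protein synapsin II, was at 70.8, 90.4, 92.1 and 107 CPM in the SOC at E16 and 249, 257, 271 and 216 CPM at P0. In the cochlea it was at 15.5, 15.7 and 16.3 CPM at E16 and 7.96, 9.23 and 10.8 CPM at P0. The ages did not overlap in either organ, the cochlea step of -0.70 stayed under the fold limit, and the organ difference was -2.28 ± 0.216 (adjusted p = 2.58e-06, edgeR). Napb, which recycles the fusion machinery in neurons, and Slc17a6, the vesicular glutamate transporter of brainstem neurons, had organ differences of -2.31 and -2.14 with steps of opposite sign in the organs, none of which passed the fold limit. Slc17a6 was at 158 to 254 and 386 to 416 CPM in the SOC and at 13.3 to 19.1 and 7.76 to 8.47 CPM in the cochlea. Synpr, the vesicle protein synaptoporin, fell in the cochlea from 7.69 to 11.9 to 3.3 to 4.21 CPM and was at 34.6 to 75.8 and 69.2 to 101 CPM in the SOC. The 18 general neuron genes had median log2 steps of 0.75 in the SOC and -0.41 in the cochlea, and 7 of them had the higher change in the SOC. The part of this shift in the synaptic lists was not tested.

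The receptors followed. Of 23 genes of GABA and glycine receptors and chloride transport 9 rose in the SOC and none in the cochlea. The higher change lay in the SOC at 8 and in the cochlea at 1, beside 4.70% and 7.93% over all genes tested. Glrb (chr3:80843599-80913660, minus strand), the beta subunit that anchors glycine receptors, was at 52.6, 52.6, 38.9 and 84 CPM in the SOC at E16 and 214, 201, 236 and 257 CPM at P0, a log2 step of 2.11 ± 0.215. In the cochlea it was at 12 to 14.1 and 10.8 to 17.1 CPM, which overlap. Slc12a5, the chloride exporter that makes GABA and glycine inhibitory, rose from 67.7 to 159.6 to 182 to 458 CPM in the SOC, with replicate 4 the lowest library at both ages, and its organ difference of -1.93 lost its call without SOC P0 replicate 3, cochlea E16 replicate 2 or 3 or cochlea P0 replicate 1 (adjusted p 0.0112 to 0.0156, edgeR). Slc12a2, the chloride importer, was the 1 gene with the higher change in the cochlea. Of 32 glutamate receptor genes 6 rose in the SOC and 3 in the cochlea, and 7 had the higher change in the SOC. Gria2, the AMPA receptor subunit that keeps calcium out, fell in the cochlea from 16.5 to 25.5 to 5.97 to 9.18 CPM, and in the SOC its libraries went from 185 to 355 to 429 to 729 CPM, a step of 1.24 under the limit (organ difference -2.67 ± 0.381). Gria1 had an organ difference of -1.93 and no called step. Grm8 (chr6:27275119-28135178, minus strand), a presynaptic metabotropic receptor, fell in the cochlea from 9.37, 6.63 and 9.09 CPM to 1.52, 2.24 and 2.08 CPM. It was at 14.6 to 17.6 and 27 to 30.2 CPM in the SOC (organ difference -3.01 ± 0.225).

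Voltage-gated channels showed the same split. Of 51 potassium channel genes 13 rose in the SOC and none fell, and 1 rose and 3 fell in the cochlea. The higher change lay in the SOC at 13, beside 4.70% over all genes tested, and in the cochlea at none. The median log2 steps were 1.00 and 0.36. Kcns2, a modifier of delayed rectifier channels, rose from 12.4 to 17.5 to 41.3 to 54.2 CPM in the SOC and was at 0.449 to 1.2 CPM in the cochlea at both ages. Kcnc2, a channel of fast-firing neurons, differed through the cochlea, where it fell from 15.9 to 17 CPM to 3.85 to 5.18 CPM, whereas the SOC went from 9.28 to 13.6 to 21.5 to 25 CPM under the limit (organ difference -2.92 ± 0.213). Kcnj3, a G protein-gated channel, also fell in the cochlea, from 1.39 to 2.27 to 0.59 to 0.71 CPM, beside a SOC step of 1.28 under the limit. Of 26 sodium and calcium channel genes 5 rose in the SOC and none in the cochlea, and 8 had the higher change in the SOC. Scn1a, the sodium channel of mature inhibitory and brainstem neurons, rose from 23.2 to 47.2 to 111 to 146 CPM in the SOC, while the cochlea was at 7.91 to 10.3 and 7.28 to 8.05 CPM (organ difference -2.25 ± 0.292). Scn3a, the channel of immature neurons, fell in the cochlea from 36.4 to 48.3 to 15.5 to 16.7 CPM. In the SOC it was at 159 to 224 and 316 to 369.6 CPM, a step of 0.98 under the limit with no overlap, and the organ difference was -2.32 ± 0.2. The counts of these lists in the SOC did not rest on replicate 4. With SOC replicates 1 to 3 alone, 17 presynaptic, 9 GABA and glycine, 9 glutamate receptor, 15 potassium and 10 sodium and calcium channel genes had the higher change in the SOC, and among genes with at least 1 CPM in the SOC at P16 the counts were 14, 8, 6, 13 and 8.

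The later course was set out for the same lists. By mean CPM, with low values raised to the counting floor, 26 presynaptic genes were over 2-fold higher at P16 than at E16 in the SOC, and 21 of them had made at least 50% of that rise, on the log2 scale, by P0. In the cochlea 23 were over 2-fold higher at P16 and 1 of them had made at least 50% of the rise by P0. The median log2 level of the 40 genes over E16 in the SOC was 1.09 at P0 and 1.52 at P16, and in the cochlea it was 0.00 and 1.48. For potassium channels it was 0.88 and 0.81 in the SOC and 0.29 and 1.47 in the cochlea, with 12 of 25 and 3 of 29 genes at 50% of their rise by P0. The presynaptic list thus reached most of its P16 level by P0 in the SOC and after P0 in the cochlea. The summed level of the 18 neuron genes also changed over these ages. At E16, P0 and P16 it averaged 1277, 870.3 and 4451 CPM in the cochlea, and 6792, 10455 and 9279.8 CPM in the SOC. The part of this change in the course of the synaptic and channel lists was not tested. Among hair bundle genes in the cochlea, 10 of 13 genes over 2-fold higher at P16 had made at least 50% of the rise by P0 and the median was 0.76 at P0 and 0.78 at P16. GABA and glycine receptor genes stood at 0.96 and 0.88 in the SOC and at -0.14 and -0.01 in the cochlea. In the SOC the medians of the glutamate receptor genes were 0.86 and then 0.21, with 4 of 8 genes at 50% of their rise by P0, and 0.37 and -0.08 in the cochlea, with 0 of 7. Sodium and calcium channel genes had 0.74 and -0.12 in the SOC, with 1 of 7, and -0.09 and -0.04 in the cochlea, with 2 of 8. In the SOC both lists thus had a lower median at P16 than at P0. Myelin genes had higher medians at P16 than at P0 in both organs, 5.28 against 1.15 in the SOC and 2.36 against 0.75 in the cochlea. Since the E16 group enters both values of an organ, they are a description and were not tested, and the E16 level of the SOC is the one that held head tissue.

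**Figure D5:**
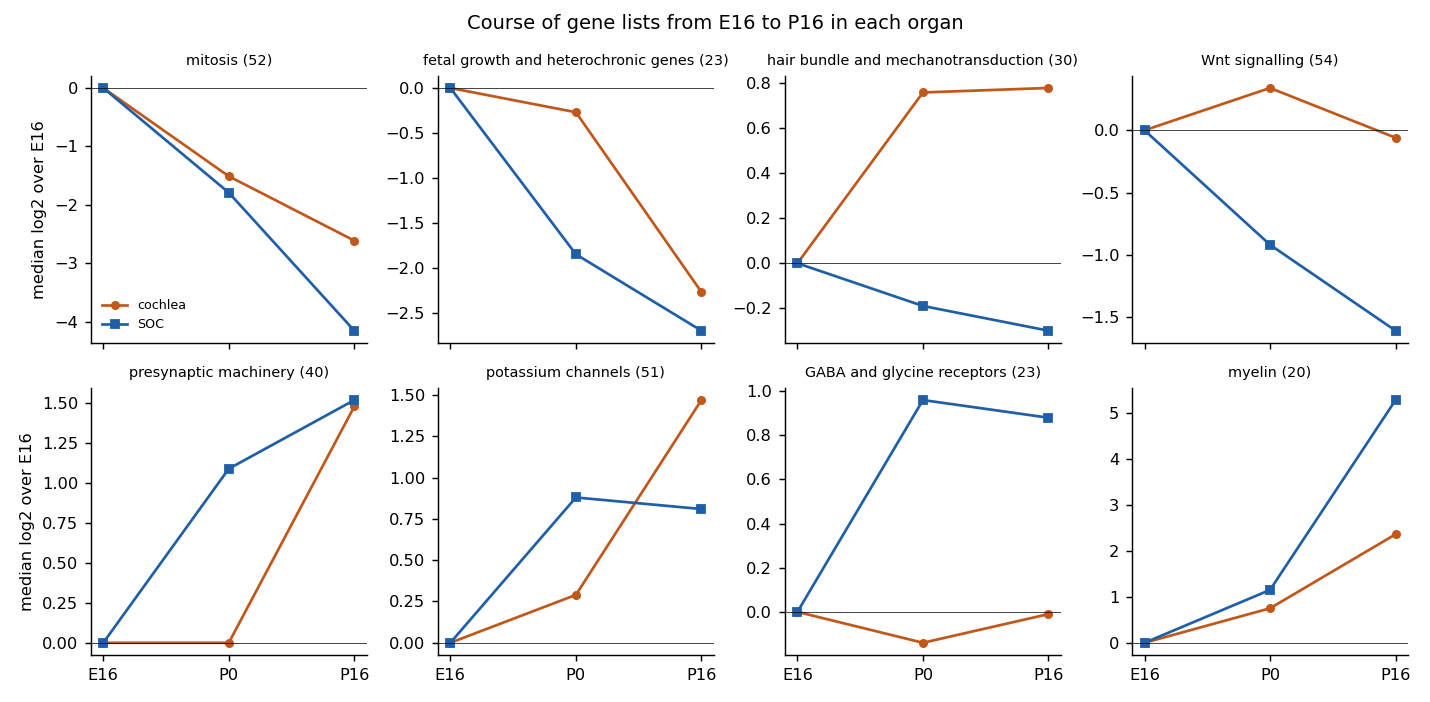
Median log2 level over E16 of 8 gene lists at E16, P0 and P16, cochlea in orange and SOC in blue, from mean CPM per group with low values raised to the counting floor. The vertical axis differs between panels. Presynaptic genes reached 1.09 by P0 in the SOC and 0.00 in the cochlea, and 1.52 and 1.48 by P16.

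Of the 770 genes with the higher change in the SOC, 186 had a called fall in the cochlea alone. Of the 18 listed neuron genes 2 fell and 2 rose in the cochlea. Of its 5 largest genes, Adarb2 (chr13:8202866-8768747, plus strand), an RNA-binding relative of the editing enzymes, fell from 21.1, 19.8 and 24.1 CPM to 3.12, 3.8 and 3.17 CPM in the cochlea. It was at 28.1 to 35.2 and 34.9 to 40.9 CPM in the SOC, a step of 0.35 that did not pass (organ difference -2.98 ± 0.169). Cbln4, a secreted synapse organiser, and Cdh12, a neural cadherin, fell in the cochlea from 1.41 to 1.71 and 1.42 to 1.6 CPM to 0.128 to 0.533 and 0.295 to 0.609 CPM. The lowest Cbln4 value lies near the level of 3 counts. In the SOC they went from 15 to 22.1 and 12.8 to 23.7 CPM to 28.9 to 36.8 and 30.5 to 47.5 CPM. These SOC steps of 0.97 and 1.30 had no overlap and stayed under the fold limit. Without cochlea P0 replicate 2 the organ difference of Cbln4 went from -3.30 to -4.09. Gm42372, a predicted gene, fell from 6.16 to 7.53 to 1.7 to 2.15 CPM in the cochlea. In the SOC it went from 16.4 to 26.7 to 30.7 to 56.1 CPM, a step of 1.26 under the limit with no overlap. Cbln4, Cdh12 and Gm42372 reached the 20 CPM of the naming rule in the SOC only. Elavl4, an RNA-binding protein of neurons, fell from 60 to 84.5 CPM to 20.9 to 22.5 CPM in the cochlea and was at 121 to 255 and 183 to 267 CPM in the SOC, and its relative Elavl2 had an organ difference of -2.33. Among 22 neurofilament and axon genes 2 fell in the cochlea, 1 rose in the SOC and 5 had the higher change in the SOC. The last count was 8 with the replicate block in the SOC, 8 with SOC replicates 1 to 3 alone and 8 without SOC P0 replicate 4, and 3 rose in the SOC in the last 2 of these. Stmn4, a regulator of microtubules in neurons, fell from 16.2 to 22.6 to 4.34 to 4.55 CPM in the cochlea, while Nefl, the light neurofilament, was at 94.5 to 145 and 49.1 to 54.3 CPM there, a step of -1.22 under the limit, and at 998 to 1656 and 1404 to 2408 CPM in the SOC. In the cochlea Nefl, Elavl4 and the neuron sum were thus lower at P0 in every library. At P16 they averaged 460.4, 114 and 4451 CPM there, above their E16 means of 125, 75.2 and 1277 CPM. Gm42372 was also above its E16 mean at P16, whereas Adarb2, Cbln4, Cdh12, Elavl2 and Stmn4 were below theirs. Whether the samples held unlike shares of neural tissue was not tested.

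Some glial genes rose in the SOC alone, but the glial lists did not all lean to that organ. Of 17 Schwann cell genes 6 had the higher change in the cochlea, beside 7.93% over all genes tested, and none in the SOC. Of these 17 genes 3 rose in the cochlea, and 1 rose and 3 fell in the SOC. Gfap (chr11:102887336-102900912, minus strand), the intermediate filament of mature astrocytes, was at 1.17, 0.923, 1.36 and 0.989 CPM at E16 and 124, 87.1, 134 and 64.1 CPM at P0 in the SOC. In the cochlea it was at 1.64 to 2.52 and 3.08 to 3.78 CPM, a step of 0.85 that did not pass. The organ difference was -5.79 ± 0.373 (adjusted p = 8.27e-08, edgeR), the largest of the genes with a called rise in the SOC alone that the naming rule took. Slc39a12, a zinc transporter, rose from 4.03 to 5.76 to 26.5 to 37.8 CPM in the SOC and was near the counting floor in the cochlea at both ages, so no fold is given there. Pla2g3, a secreted phospholipase, rose from 0.75 to 1.27 to 13.5 to 36 CPM. Of 18 astrocyte genes 10 rose and 1 fell in the SOC, 6 rose and 1 fell in the cochlea, and 3 differed in each direction. Of 18 genes of the oligodendrocyte lineage 5 rose and 1 fell in the SOC, where 8 rose without P0 replicate 4. The higher change lay in the SOC at 2, beside 4.70% over all genes tested, and in the cochlea at none. Gpr17, a receptor of oligodendrocyte precursors, rose from 14.5 to 32.1 to 61.7 to 142 CPM in the SOC. Myelin genes rose at 10 of 20 in the SOC and 3 of 20 in the cochlea, and 4 differed between the organs. The count with the higher change in the SOC was 2, and it was 5 without SOC P0 replicate 4, 7 with SOC replicates 1 to 3 alone and 4 with the replicate block in the SOC, while the count for the cochlea was 2 in each. Omg (-3.07) and Tspan2 (-1.67) had the higher change in the SOC, and Cldn11 (2.30) and Mal (2.07), both also made outside myelin, in the cochlea. Cldn11 went from 47 to 56.3 to 125 to 186 CPM in the cochlea, and in the SOC from 44 to 68.8 to 26.2 to 37.6 CPM, a step of -0.69. Of the same class as Gfap, Mpped1 and Gda were high in SOC P0 replicate 4 alone, at 200.1 and 71.5 CPM against 27.7 to 40.8 and 15.1 to 21.3 CPM in the other SOC P0 libraries, and without it their organ differences went from -3.94 and -3.77 to -2.73 and -2.95. The call of Mpped1 was lost without SOC E16 replicate 1 or 2 or any 1 of the 6 cochlea libraries (adjusted p 0.0107 to 0.0172, edgeR).

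Opposite steps were called at 66 genes. Among the 9 with the higher change in the SOC, Tac1 (chr6:7554879-7565834, plus strand), the precursor of substance P, was at 12.5, 13 and 10.7 CPM in the cochlea at E16 and 0.8, 0.959 and 1.03 CPM at P0. In the SOC it was at 15.6, 12.3, 11.9 and 14.7 CPM at E16 and 34.7, 32.9, 26.9 and 37.3 CPM at P0. The ages were separate in both organs, with log2 steps of -3.63 ± 0.191 and 1.40 ± 0.136. Neurod1, a factor of spiral ganglion and brainstem neurons, fell in the cochlea from 1.58 to 2.16 to 0.224 to 0.284 CPM and rose in the SOC from 8.62 to 12.2 to 19.4 to 29.5 CPM (organ difference -4.20 ± 0.306). Tph2, the enzyme of serotonin synthesis in neurons, fell from 1.03 to 1.43 to 0.126 to 0.417 CPM in the cochlea and rose from 9.71 to 13.8 to 27.5 to 40.1 CPM in the SOC. The 57 in the other direction were led by genes of cartilage and epithelium. Matn1, a cartilage matrix protein, rose from 15.4, 22.7 and 16.1 to 75.9, 66.3 and 70.9 CPM in the cochlea and fell from 174 to 513 to 0.416 to 2.92 CPM in the SOC, and Cytl1 and Pkp1 (a desmosome protein) rose from 3.31 to 5.81 and 0.0818 to 0.983 CPM to 31.1 to 53.5 and 19.1 to 33.8 CPM in the cochlea. The organ difference of Matn1 was 9.68, and 10.33 without SOC P0 replicate 3, and that of Cytl1 was 9.31, and 10.21 without the same library. That of Pkp1 was 9.90, and it was 11.19 without cochlea E16 replicate 2 and 9.24 without SOC E16 replicate 1. Among the 12 genes with a called step in the same direction, Scg2, a granin of secretory vesicles, rose from 3.55 to 3.97 to 54.1 to 77.7 CPM in the cochlea and from 166 to 212 to 398 to 516 CPM in the SOC, and its organ difference was 2.79 ± 0.206. At P16 it was at 1.35 CPM in the cochlea and 397 CPM in the SOC. Of 19 neuropeptide genes 4 had the higher change in the SOC and Scg2 alone in the cochlea. Vgf rose in the SOC from 6.75 to 19.3 to 37.6 to 113 CPM.

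Genes of Wnt signalling had the higher change in the cochlea. This held for 23 of 54, beside 7.93% over all genes tested, and none had the higher change in the SOC. Only 3 rose and 1 fell in the cochlea, while 12 fell in the SOC, where 7.09% of all genes tested fell. The median log2 step was 0.40 in the cochlea and -0.83 in the SOC. The 4 largest were secreted inhibitors. Frzb was at 24.5 to 26.1 and 43.7 to 50.5 CPM in the cochlea, a step of 0.97 under the limit, and fell from 25.6 to 30.8 to 5.81 to 8.14 CPM in the SOC (organ difference 2.90 ± 0.184). Sfrp2 fell from 48.1 to 127 to 14 to 25.8 CPM, Sfrp5 from 2.45 to 5.39 to 0.864 to 1.53 CPM and Wif1 from 8.26 to 14.2 to 2.08 to 3.07 CPM in the SOC, and none was called in the cochlea. The count was 21 of 45 among genes with at least 1 CPM in the SOC at P16. Genes of fetal growth behaved alike. Of 23 tested 13 fell in the SOC and 1 in the cochlea, and 12 had the higher change in the cochlea against 1 in the SOC. Igf2 (chr7:142650766-142666816, minus strand), the fetal growth factor, was at 659.8, 885 and 646 CPM in the cochlea at E16 and 714, 941 and 892 CPM at P0, and fell in the SOC from 469, 619, 549 and 563 CPM to 119, 125, 115 and 71.2 CPM. The organ difference was 2.51 ± 0.266. H19, the noncoding RNA beside it, was at 689 to 949.8 and 787 to 961 CPM in the cochlea and fell from 1851 to 2469 to 153 to 259 CPM in the SOC. Plagl1, a factor that regulates imprinted genes, and Cdkn1c, an imprinted inhibitor of the cell cycle, fell in the SOC with organ differences of 2.41 and 2.87. In the cochlea these genes fell later. The list had a median log2 level over E16 of -0.27 at P0 and -2.27 at P16 there, and of -1.85 and -2.70 in the SOC. The parts of head tissue in the Wnt and growth lists were not tested.

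Among genes with a called fall in the SOC alone, the largest organ differences were those of Ckm (muscle creatine kinase), Actc1 (cardiac actin), Oc90, Col2a1 and Otor, which are known from muscle, cartilage and inner ear. The part of head tissue in them was not tested. Col2a1 (chr15:97975602-98004695, minus strand), the main collagen of cartilage, was at 6982, 6104, 7107 and 3187 CPM in the SOC at E16 and 16.3, 22.6, 44.4 and 5.86 CPM at P0. In the cochlea it was at 4083, 5045 and 4329.5 CPM at E16 and 8583, 10454 and 10542 CPM at P0, a log2 step of 1.19 that did not pass, and the organ difference of 9.11 was 9.80 without SOC P0 replicate 3. Ckm fell in the SOC from 43.2 to 139 to 0.189 to 0.487 CPM, and Actc1, from 74.7 to 153 to 0.0378 to 0.416 CPM. In the cochlea both were at most 5.26 CPM, and without P0 replicate 2, the highest cochlea library, their organ differences of 9.66 and 9.34 became 8.57 and 7.11. Of 32 muscle genes 28 had the higher change in the cochlea with 27 falling in the SOC, of 20 cartilage genes 17 with 17 falling, and of 17 bone genes 13 with 13 falling. Among genes of this class with at least 1 CPM in the SOC at P16 the largest were Col2a1, Col9a1, Lect1 (a cartilage protein, at 101 to 231 and 0.665 to 1.36 CPM in the SOC), Tnni1 (slow troponin I, at 22.5 to 59.7 CPM in the SOC at E16, at most 0.576 CPM at P0 and 17.3 CPM at P16) and Myh8 (a perinatal myosin, at 119.7 to 243 and 1.66 to 3.59 CPM). The P16 minimum thus did not remove genes of muscle and cartilage. The organ difference of Myh8 was 7.01, and 5.01 without cochlea P0 replicate 2.

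Some lists not described above leaned to the cochlea. The higher change lay there at 22 of 23 inner ear, 15 of 21 meninges and fibroblast and 7 of 12 erythroid genes. It also lay there at 6 of 14 skin and oral epithelium genes and 5 of 26 immediate early genes, beside 7.93% over all genes tested. None of these genes had the higher change in the SOC. The lists that follow differed at few genes or in both directions. Of 71 genes of the respiratory chain none was called in either organ or for the difference, which ran from -0.97 to 0.75 with 8 genes at an adjusted p under 0.01 and 34 at an unadjusted p under 0.05 (edgeR). DESeq2 called none of the 71. Of 72 axon guidance genes 6 differed in each direction, beside 7.93% and 4.70% over all genes, and 20 had an adjusted p under 0.01 (edgeR). They were led by Boc (2.51) and Slit3 (2.29). Of 30 genes of antigen presentation and interferon 9 rose in the cochlea and 5 in the SOC. The higher change lay in the cochlea at 2 and in the SOC at 1 of the 30, near the shares over all genes. Of 37 measured hindbrain Hox and patterning genes 20 had no cochlea counts and were not tested. The 17 tested held no call for the difference with edgeR or DESeq2, and 4 of them had an unadjusted p under 0.05 and 2 an adjusted p under 0.01.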

How the data were processed

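Raw counts of reads for each gene were deposited by the authors as one table, made with STAR 2.5.3a on mm10 and GENCODE genes, and HTSeq also stands in the submitters' processing notes. The annotation version and the use of strand are not given in the sources used here. The counts showed that the table joins tables filtered on their own, each without genes whose highest count was 1 to 20. A 0 through such a table allows 20 counts (0.756 to 0.96 CPM in the SOC), and any other 0 allows 3 counts (0.0962 to 0.144 CPM). Counting error alone is covered by these floors. Of the genes tested, 568 and 391 were at 0 through the tables of SOC replicates 1 to 3 and replicate 4.

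Counts were fitted with edgeR 4.0.16 (R 4.3.3, TMM factors, quasi-likelihood F test) over the 4 groups, with no minimum count beyond the rule. No block entered the fit, and a replicate block was an alternative. P-values were adjusted by Benjamini-Hochberg over 16394 genes. The postnatal course used all 20 libraries. The script was tested on simulated data. DESeq2 1.42.0 was an alternative. The 46 gene lists were matched to the table by symbol or gene ID. Named genes were, among protein-coding genes whose mean reached 20 CPM in a group, the 5 with the largest organ difference in each direction with a called step in one organ, the 3 with opposite steps, 5 with at least 1 CPM in the SOC at P16, and up to 4 called genes and the defining genes of a list. The members, lists and tests were chosen with earlier results of these data known. Positions are from GENCODE M21, which held 99.7% of the genes, and promoters are from RefSeq. Some genes are not reported here. Since nothing ties libraries to separate litters, p-values measure the spread between pools.

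Same-numbered SOC libraries deviated together (r 0.412 to 0.705 over genes) and met the rule for pairs, that every r exceed 0.1. Replicates 2 and 3 correlated more across numbers (0.487 and 0.524) than within them (0.412 and 0.423). Same-numbered cochlea libraries did not meet the rule (0.561, 0.605 and -0.211). The calls and p-values above come from the fit without pairs. With the replicate block in the SOC there were 1619 and 980 organ differences.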

Additional observations from a re-analysis of the deposited data

Results flagged for a closer look

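Every gene named by size has an organ difference by construction, so these values repeat the comparison itself. In all, the cochlea had the higher change at 1300 genes and the SOC at 770. The differences were 5.16 (Ppp1r1b), 4.03 (Slc6a2), 3.58 (Espnl), 3.53 (Calb2) and 3.28 (Espn) with a cochlea rise, and -3.30 (Cbln4), -3.08 (Cdh12), -3.08 (Gm42372), -3.01 (Grm8) and -2.98 (Adarb2) with a cochlea fall. With a SOC fall they were 9.66 (Ckm), 9.34 (Actc1), 9.25 (Oc90), 9.11 (Col2a1), 9.07 (Otor), 8.37 (Col9a1), 7.58 (Lect1), 7.57 (Tnni1) and 7.01 (Myh8). With a SOC rise they were -5.79 (Gfap), -4.42 (Pla2g3), -4.26 (Slc39a12, or -2.88 with low values raised to the counting floor), -3.94 (Mpped1) and -3.77 (Gda). With opposite steps they were 9.90 (Pkp1), 9.68 (Matn1), 9.31 (Cytl1), -5.02 (Tac1), -4.20 (Neurod1) and -3.76 (Tph2).

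A library far from the other 3 of its SOC group was found in 17 of 226 groups tested, by its gap to the nearest library over the range of the group, where chance gives about 1 in 20 (Dixon's test). Replicate 4 was that library in 11 of the 17. At P0 these were Ppp1r1b (6.96 CPM), Slc6a2 (10.5), Mpped1 (200.1), Gda (71.5), Elavl4 (267) and the forebrain cortex sum (436). At E16 they were Eps8l2 (2.49), Napb (316), Nefl (1656) and the sums of the oligodendrocyte (616) and Schwann cell (517) lists. SOC E16 replicate 1 was highest for Actc1 (153), Tnni1 (59.7) and Myh8 (243), SOC P0 replicate 1 for Atp6v0a4 (0.672) and Wif1 (3.07), and SOC P0 replicate 3 for Epyc (0.842).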

How the results depend on the processing

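The counts of organ differences stayed within 1.5 times under 28 of 29 alternatives. Against a threshold of 2.5-fold inside the test (glmTreat) they were 541 and 101, and the steps were 35 rises and 24 falls in the cochlea and 117 and 532 in the SOC. With genes of at least 1 CPM in the SOC at P16 there were 725 SOC falls. Leaving out each replicate gave 1144 to 1493 and 515 to 964 organ differences, 317 to 594 rises and 302 to 517 falls in the cochlea (302 without its E16 replicate 3), and 493 to 737 rises and 1145 to 1290 falls in the SOC. Without cochlea E16 replicate 1 the SOC-higher count was 515. Upper-quartile factors moved the median organ difference of all genes from -0.066 to 0.041 and gave 1433 and 635. With SOC replicates 1 to 3 alone there were 1513 and 1019, which held 97.6% and 97.9% of the main calls. The replicate block in both organs gave 1642 and 1004, with GC-adjusted offsets as well 1574 and 887, and the block in the SOC alone, added after seeing the data, gave 1619 and 980. Neither block changed a named call without the GC offsets. DESeq2 gave 1485 and 775, without an adjusted p for Actc1 and Myh8. No named gene changed direction, and 62 of 89 kept their call in every setting that gave one. Zeros of joined tables and the depth near 3 counts limit the folds of low genes. Of 2726 list counts under the alternatives 2558 stayed within 1.5 times.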
